A study of Homo sapiens with 24 samples.

Results

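Ribosome biogenesis factors and nucleolar proteins were followed in 2 prostate cancer sublines after siRNA against POM121, a nuclear pore protein anchored in the nuclear membrane. The group was taken by gene symbol from a list of 50 factors, and all 50 had 1 line each among the 25277 symbols of the expression table. All 50 were above the detection floor in enough libraries to be tested, as were 13622 symbols in all. By step, 6 act in transcription of ribosomal RNA by RNA polymerase I, 9 in small nucleolar ribonucleoproteins (snoRNPs), 13 in the small subunit, 18 in the large subunit and 4 at several steps.

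DU145DR and 22Rv1DR are aggressive sublines of the human prostate cancer lines DU145 and 22Rv1, known as models of docetaxel resistance. Each line was given a control, which the labels describe no further, or 1 of 2 commercial Silencer Select siRNA constructs against POM121. RNA was poly(A)-selected and sequenced without strand information. There were 12 libraries, 2 per group, each read on 2 lanes. Library codes that start with 1 or 2 are DU145DR and those that start with 4 or 5 are 22Rv1DR, while the letter gives the treatment (A control, B construct 1, C construct 2). The labels give no time after transfection and do not name separate cultures, so p-values measure the spread between these libraries alone, which may be technical. All levels are FPKM, fragments per transcript length and per library size, which are relative to all other transcripts of a library, so a change in total RNA per cell cannot be seen. The deposited table sets values of 1 FPKM or less to 0. Fold changes are on the log2 FPKM scale, as siPOM121 (mean of both constructs) minus control in the same line, with moderated standard errors (SE) from limma. A gene is said to have risen or fallen where the Benjamini-Hochberg adjusted p over all symbols tested was under 0.05.

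Ribosome assembly starts in the nucleolus, where RNA polymerase I makes a long precursor that holds most of the ribosomal RNAs. Box C/D snoRNPs, built around the methyltransferase FBL, and box H/ACA snoRNPs, built around the pseudouridine synthase DKC1, modify that precursor, while the U3 snoRNP and the proteins of the small subunit processome fold and cleave it. A separate set of GTPases, helicases and scaffold proteins matures the large subunit. Growing cells, tumour cells among them, make these factors at high levels, and MYC is a well-known activator of many of their genes.

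The targeted transcript was lower in all 8 siPOM121 libraries. POM121, whose reads can be shared with its near-identical copy POM121C, stood at 21.6 and 21.3 FPKM in controls, 13.4 and 13.5 with construct 1 and 12.5 and 13.2 with construct 2 in DU145DR. In 22Rv1DR POM121 was at 38.5 and 37.8 FPKM in controls, 7.68 and 7.81 with construct 1 and 6.73 and 7.43 with construct 2. Its log2 fold change was -0.71 ± 0.05 in DU145DR (adjusted p = 5.66e-05) and -2.37 ± 0.05 in 22Rv1DR (adjusted p = 9.48e-09). MYC did not pass the test in either line. It stood at 118 and 113 FPKM in controls, 104 and 96.99 with construct 1 and 113 and 103 with construct 2 in DU145DR (-0.15 ± 0.11, adjusted p = 0.381). In 22Rv1DR MYC was at 86.1 and 87.4 FPKM in controls, 78.9 and 79.5 with construct 1 and 56.4 and 78.8 with construct 2 (-0.26 ± 0.11, adjusted p = 0.097). With construct 2 alone it fell in 22Rv1DR (-0.38 ± 0.13, adjusted p = 0.0419), a call that held without 5C and was lost without any other single library. Library 4C held the lowest MYC level, and without it the value was -0.14. The read depth is unknown. Between 11884 and 12569 symbols were above the floor per sample. DU145DR listed the prostate markers KLK3, KLK2, HOXB13 and TMPRSS2 at 0, and 22Rv1DR had all 4 above the floor. Of 14 stromal, endothelial and blood markers, 3 were above the floor in DU145DR and 4 in 22Rv1DR. Libraries 4C and 5C stood apart from each other: ribosomal protein genes held 18.6% of summed FPKM in 4C and 12.2% in 5C, against 15.1% to 17.1% in the other 22Rv1DR libraries, and the median over all genes tested, relative to control, was -0.07 in 4C and 0.00 in 5C. Lane numbers 1 and 2 belonged to all DU145DR libraries and 4A, and 3 and 4 to the other 5 libraries of 22Rv1DR. Equal numbers need not mean the same physical lanes.

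Knockdown of POM121 lowered most ribosome biogenesis factors in both lines. In DU145DR 42 of the 50 fell, none rose and 8 did not pass the test, with a median log2 fold change of -0.35, a level 0.786 times that of control. In 22Rv1DR 42 fell, 1 rose (NOP10) and 7 did not pass, with a median of -0.37, or 0.776 times control. Over all 13622 symbols tested, 9.37% fell and 14.5% rose in DU145DR, and 20.4% fell and 15.2% rose in 22Rv1DR, and the all-gene medians were 0.00 and -0.02. At an unadjusted p under 0.05, 46 members were lower and 0 higher in DU145DR. The share of all symbols under that unadjusted threshold, here and below, was not counted. The values of single members ran from -0.67 to -0.04 in DU145DR and from -0.84 to 0.15 in 22Rv1DR. The members' share of all summed FPKM was 0.98% to 0.99% in DU145DR controls and 0.78% to 0.80% after knockdown, and 0.65% to 0.67% and 0.52% to 0.59% in 22Rv1DR.

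**Figure D1:**
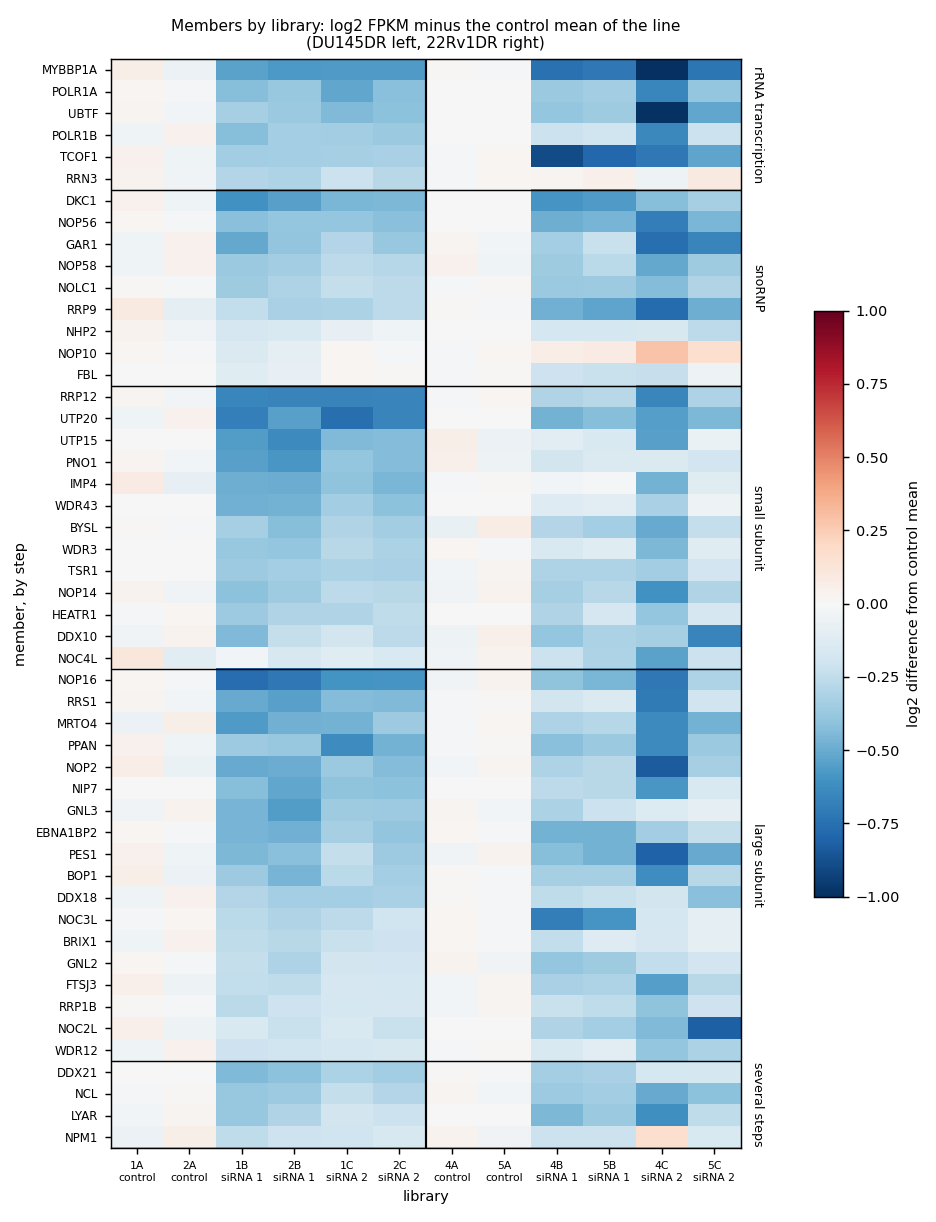
Level of each of the 50 factors in each of the 12 libraries, as log2 FPKM minus the mean of the 2 controls of the same line, with rows grouped by step. The colour scale ends at a difference of 1 in either direction. Nearly all siPOM121 cells are blue in both lines, NOP10 is red in 22Rv1DR, and the 4C column is the darkest.

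The groups rarely overlapped. In 47 of 50 members all 4 siPOM121 libraries of DU145DR lay below both controls, against 22.0% of all symbols tested, and in 0 members did they lie above, against 27.2% of symbols. FBL, NOP10 and NOC4L were the exceptions. In 22Rv1DR 47 of 50 again lay below, against 27.3% of symbols, with RRN3, NOP10 and NPM1 as exceptions, and NOP10 alone lay above both controls, against 18.0% of symbols. Both lines lowered the same 36 members. The share of all symbols that fell in both lines was not counted. IMP4, RRN3, RRS1, UTP15, WDR3 and WDR43 fell in DU145DR and did not pass the test in 22Rv1DR, and DDX10, FBL, FTSJ3, NHP2, NOC2L and NOC4L the reverse. Across the 50 members the fold changes in the 2 lines had Pearson's r = 0.41 and Spearman's rho = 0.33, against 0.23 and 0.28 across all genes tested, and genes are not independent replicates.

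These counts lean on the control libraries. In DU145DR 24 members fell without 1A (3.13% of all symbols) and 27 without 2A (3.88%). In 22Rv1DR fewer members fell without 4A or without 5A, and more without 4C or without 5C, and the share of all symbols moved likewise. The members' median was -0.37 without 4A, which leaves libraries with lane numbers 3 and 4. It was -0.34 without 5A, -0.30 without 4C and -0.41 without 5C. The median of the members stayed between -0.36 and -0.34 in DU145DR and between -0.41 and -0.30 in 22Rv1DR over these omissions. In DU145DR 21 members fell whichever single library was left out: POLR1A, TCOF1, NOP56, NOP58, DKC1, GAR1, NOLC1, WDR43, UTP20, TSR1, PNO1, RRP12, NOP16, PPAN, EBNA1BP2, NOC3L, MRTO4, GNL2, GNL3, NCL and DDX21. In 22Rv1DR 27 did: POLR1A, UBTF, TCOF1, MYBBP1A, NOP56, NOP58, RRP9, DKC1, GAR1, NHP2, NOLC1, UTP20, NOP14, TSR1, NOP16, PES1, WDR12, PPAN, EBNA1BP2, NOC2L, NOC3L, MRTO4, FTSJ3, GNL2, NCL, DDX21 and LYAR. The calls of the other members named below were lost without at least 1 library. How many of all symbols fell in every such fit was not counted.

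Shared promoter sequence was looked for, since the members moved together. The RefSeq table of promoters (GRCh38.p14, 250 bases before to 50 after the annotated start) held 42 of the 50 members. The palindrome CACGTG, the E-box that MYC and MAX are known to bind, was in 16 of these 42, or 38.1%, against 10.3% of 9901 tested genes with a promoter and 7.43% of all 27305 promoters in the table. All motifs were searched on both strands. CCAAT was in 35.7% of members, 36.7% of tested genes and 35.7% of all promoters. CCGGAAG, an ETS-type site, was in 33.3%, 19.1% and 10.7%, and the GC box GGGCGG in 76.2%, 70.8% and 44.6%. The E-box was in 1 of 5 members of rRNA transcription, 3 of 7 snoRNP members, 6 of 12 of the small subunit, 6 of 14 of the large subunit and 0 of 4 that act at several steps. Windows of 30 bases are shown for 5 members with an E-box and fold changes among the largest of their step in at least 1 line, and for NOP10, which carries it at 2 places and did not fall. They run 5′ to 3′ on the strand of the gene, with the E-box in capitals:
MYBBP1A (chr17:4555340-4555369, minus strand, GRCh38.p14): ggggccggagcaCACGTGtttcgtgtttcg
RRP9 (chr3:51941892-51941921, minus strand): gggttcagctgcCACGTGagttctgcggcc
UTP20 (chr12:101280083-101280112, plus strand): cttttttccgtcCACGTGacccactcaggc
PES1 (chr22:30591880-30591909, minus strand): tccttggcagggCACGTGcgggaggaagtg
MRTO4 (chr1:19251807-19251836, plus strand): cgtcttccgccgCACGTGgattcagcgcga
NOP10, upstream (chr15:34343289-34343318, minus strand): gtagggacactcCACGTGttttagcctgca
NOP10, at the start (chr15:34343130-34343159, minus strand): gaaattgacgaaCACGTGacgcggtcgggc

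The medians of members with and without the E-box were close. The median log2 fold change of the 16 with it was -0.39 in DU145DR and -0.38 in 22Rv1DR, and that of the 26 without it was -0.34 and -0.32. The ranges overlapped, from -0.66 to -0.04 with the E-box and from -0.67 to -0.11 without it in DU145DR. Over all tested genes with a promoter, those with an E-box had medians of 0.00 in DU145DR and -0.05 in 22Rv1DR, and those without it 0.00 and -0.01. NOP14, BYSL, PNO1, IMP4, WDR43, NOP2, EBNA1BP2, NOC3L, GNL2 and FBL were the other members with the motif. A match is a stretch of letters, and binding was not measured.

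Factors of ribosomal RNA transcription fell in DU145DR without exception (6 of 6, median -0.38), and 5 of 6 fell in 22Rv1DR (median -0.50). MYBBP1A, a nucleolar protein that binds RNA polymerase I and takes part in precursor processing, stood in DU145DR at 47.7 and 43.8 FPKM in controls, 31.5 and 30.7 with construct 1 and 30.9 and 30.8 with construct 2. In 22Rv1DR MYBBP1A was at 37.01 and 36.3 FPKM in controls, 21.9 and 22.4 with construct 1 and 16.3 and 22.3 with construct 2. Its log2 fold changes were the largest of the step in both lines, at -0.56 ± 0.10 in DU145DR (adjusted p = 0.00396) and -0.84 ± 0.10 in 22Rv1DR (adjusted p = 0.000372), and library 4C was the lowest of the 12. TCOF1, the treacle protein that recruits the transcription machinery to ribosomal DNA, stood in 22Rv1DR at 25.8 and 26.7 FPKM in controls, 14.1 and 15.2 with construct 1 and 16.00 and 18.2 with construct 2, with all 4 siPOM121 libraries far below the controls (-0.73 ± 0.06, adjusted p = 4.52e-05). In DU145DR it was at 43.2 and 40.5 FPKM in controls, 32.8 and 33.03 with construct 1 and 33.3 and 33.3 with construct 2 (-0.34 ± 0.06, adjusted p = 0.00311). The catalytic core fell as well. POLR1A, the largest subunit of RNA polymerase I, stood in DU145DR at 15.1 and 14.6 FPKM in controls, 11.1 and 11.5 with construct 1 and 10.4 and 11.1 with construct 2 (-0.43 ± 0.07, adjusted p = 0.00228). In 22Rv1DR POLR1A was at 11.5 and 11.5 FPKM in controls, 8.89 and 9.04 with construct 1 and 7.32 and 8.81 with construct 2 (-0.44 ± 0.07, adjusted p = 0.00141). POLR1B, the other large subunit, fell by 0.37 ± 0.10 and by 0.32 ± 0.10 (SE, adjusted p = 0.0238 and 0.0311). UBTF, which coats active ribosomal DNA, stood in 22Rv1DR at 29.2 and 29.01 FPKM in controls, 22.3 and 22.7 with construct 1 and 14.7 and 20.3 with construct 2, where 4C was again lowest (-0.56 ± 0.10, adjusted p = 0.0028), and fell by 0.39 ± 0.10 in DU145DR (adjusted p = 0.0223). RRN3, the initiation factor that readies the polymerase for the promoter, stood in DU145DR at 24.5 and 23.3 FPKM in controls, 19.5 and 19.3 with construct 1 and 20.6 and 19.7 with construct 2, where it fell (-0.27 ± 0.05, adjusted p = 0.00371). In 22Rv1DR RRN3 was at 18.02 and 18.4 FPKM in controls, 18.6 and 18.9 with construct 1 and 17.6 and 19.4 with construct 2, with overlapping groups (0.03 ± 0.05, adjusted p = 0.69).

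Of the snoRNP proteins, 6 of 9 fell in DU145DR (median -0.29), and 8 of 9 fell and 1 rose in 22Rv1DR (median -0.37). Values of proteins of the same particle were widely spread, and differences between members were not tested. Of the 4 H/ACA core proteins, DKC1, the pseudouridine synthase, stood in DU145DR at 81.7 and 76.7 FPKM in controls, 52.1 and 54.3 with construct 1 and 57.8 and 58.00 with construct 2. In 22Rv1DR DKC1 was at 39.8 and 39.6 FPKM in controls, 26.4 and 26.8 with construct 1 and 29.6 and 31.5 with construct 2. DKC1 lay below both controls in every knockdown library, with log2 fold changes of -0.51 ± 0.04 in DU145DR (adjusted p = 0.000108) and -0.48 ± 0.04 in 22Rv1DR (adjusted p = 8.86e-05). GAR1, its partner in the particle, stood in DU145DR at 33.6 and 35.6 FPKM in controls, 24.2 and 26.2 with construct 1 and 28.2 and 26.5 with construct 2. In 22Rv1DR GAR1 was at 38.2 and 36.7 FPKM in controls, 29.6 and 32.1 with construct 1 and 22.2 and 23.7 with construct 2. GAR1 lay below both controls in every knockdown library, with log2 fold changes of -0.40 ± 0.06 in DU145DR (adjusted p = 0.00132) and -0.49 ± 0.06 in 22Rv1DR (adjusted p = 0.000278). NHP2, which binds the guide RNA, stood at 127 and 121 FPKM in controls, 110.0 and 112 with construct 1 and 117 and 120.2 with construct 2 in DU145DR, did not pass there (-0.11 ± 0.04, adjusted p = 0.0708) and fell by a small step in 22Rv1DR (-0.19 ± 0.04, adjusted p = 0.00529). NHP2 shares 27.4% of its exonic bases with RMND5B on the other strand, and the libraries do not tell strands apart. NOP10, the smallest core protein, stood in DU145DR at 195 and 191 FPKM in controls, 174 and 181 with construct 1 and 196 and 191 with construct 2 (-0.06 ± 0.04, adjusted p = 0.363), where the groups overlapped. NOP10 rose in 22Rv1DR, where it was at 171 and 175 FPKM in controls, 181 and 183 with construct 1 and 211 and 195 with construct 2 (0.15 ± 0.04, adjusted p = 0.0185). Its rise lost the threshold without 4A, without 5A and without 5B, and was larger in 4C and 5C than in 4B and 5B.

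The C/D core proteins were also spread. NOP56, a core scaffold, stood in DU145DR at 117 and 113 FPKM in controls, 85.97 and 87.9 with construct 1 and 87.6 and 85.9 with construct 2. In 22Rv1DR NOP56 was at 89.3 and 89.5 FPKM in controls, 63.9 and 64.7 with construct 1 and 55.3 and 65.3 with construct 2, with no overlap in either line. NOP56 lay below both controls in every knockdown library, with log2 fold changes of -0.40 ± 0.06 in DU145DR (adjusted p = 0.00141) and -0.52 ± 0.06 in 22Rv1DR (adjusted p = 0.000248), and its partner NOP58 fell by 0.32 ± 0.05 and by 0.37 ± 0.05 (adjusted p = 0.00304 and 0.000921). FBL, the methyltransferase itself, did not pass in DU145DR, where it stood at 223 and 225 FPKM in controls, 206 and 212 with construct 1 and 227 and 226 with construct 2 (-0.04 ± 0.05, adjusted p = 0.62), and fell in 22Rv1DR by 0.18 ± 0.05 (adjusted p = 0.0199). RRP9, which belongs to the U3 snoRNP, stood in 22Rv1DR at 24.5 and 24.1 FPKM in controls, 17.4 and 16.9 with construct 1 and 14.3 and 17.4 with construct 2, the largest drop of the step there (-0.57 ± 0.08, adjusted p = 0.000754), and fell by 0.29 ± 0.08 in DU145DR (adjusted p = 0.0258). NOLC1, a phosphoprotein that carries snoRNPs within the nucleus, fell by 0.29 ± 0.04 and by 0.37 ± 0.04 (adjusted p = 0.00139 and 0.000287).

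Some members also have snoRNA genes between their ends, on the same strand. In GENCODE v29, 8 of the 50 members, or 16.0%, had at least 1 snoRNA gene inside, against 188 of 12068 other coding genes tested, or 1.56%. They were NOP56 with 5, NOP58 with 4, DKC1 with 2, WDR43 with 3, TSR1 with 2, PPAN with 2, GNL3 with 6 and NCL with 3. All 8 host transcripts fell in DU145DR, and 7 of them, WDR43 being the exception, in 22Rv1DR. Of all 50 members 42 fell in each line, so these counts do not set the hosts apart. The snoRNAs themselves lack poly(A) tails and were not measured here.

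Small subunit factors fell in 11 of 13 cases in DU145DR (median -0.35) and in 9 of 13 in 22Rv1DR (median -0.29). RRP12, needed for export of the small subunit precursor, stood in DU145DR at 43.98 and 42.3 FPKM in controls, 27.5 and 27.2 with construct 1 and 27.2 and 27.2 with construct 2 (-0.66 ± 0.08, adjusted p = 0.000568). In 22Rv1DR RRP12 was at 19.8 and 20.4 FPKM in controls, 16.4 and 16.6 with construct 1 and 12.8 and 16.2 with construct 2 (-0.39 ± 0.08, adjusted p = 0.00512). UTP20, a large processome scaffold, stood in DU145DR at 14.96 and 15.9 FPKM in controls, 9.60 and 10.6 with construct 1 and 9.12 and 9.76 with construct 2. In 22Rv1DR UTP20 was at 6.61 and 6.55 FPKM in controls, 4.75 and 4.89 with construct 1 and 4.50 and 4.82 with construct 2. UTP20 lay below both controls in every knockdown library, with log2 fold changes of -0.66 ± 0.06 in DU145DR (adjusted p = 0.000133) and -0.47 ± 0.06 in 22Rv1DR (adjusted p = 0.000405), the latter the largest drop of the step in that line. PNO1, the partner of the NOB1 nuclease in the last cut of the small subunit rRNA, stood in DU145DR at 40.6 and 38.9 FPKM in controls, 27.3 and 26.5 with construct 1 and 30.4 and 29.3 with construct 2 (-0.48 ± 0.04, adjusted p = 0.000166). In 22Rv1DR PNO1 was at 16.2 and 15.1 FPKM in controls, 13.7 and 14.2 with construct 1 and 14.2 and 13.7 with construct 2 (-0.17 ± 0.04, adjusted p = 0.0184), a smaller drop by the interaction test of the lines, from controls with less of the transcript. UTP15, of the early complex that links transcription to processing, had the lowest level of all members in controls of both lines and stood in DU145DR at 4.27 and 4.24 FPKM in controls, 2.90 and 2.74 with construct 1 and 3.14 and 3.14 with construct 2 (-0.52 ± 0.11, adjusted p = 0.0094). In 22Rv1DR UTP15 was at 5.00 and 4.60 FPKM in controls, 4.44 and 4.31 with construct 1 and 3.29 and 4.59 with construct 2 and did not pass (-0.22 ± 0.11, adjusted p = 0.161), with 4C far below the rest.

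HEATR1 and WDR43 belong to the same early complex as UTP15. HEATR1 fell in both (by 0.30 ± 0.06 and 0.25 ± 0.06, adjusted p = 0.00841 and 0.0136), though 23.2% of its exonic bases are shared with LGALS8 on the other strand and its lanes in 4C differed by 0.55. WDR43 fell by 0.43 ± 0.07 in DU145DR (adjusted p = 0.00195) and stood at -0.15 ± 0.07 in 22Rv1DR (adjusted p = 0.0984). WDR3, a processome component, fell by 0.34 ± 0.08 (adjusted p = 0.0107) and stood at -0.21 ± 0.08 (adjusted p = 0.0531). IMP4, of the U3 particle, stood in 22Rv1DR at 35.6 and 36.1 FPKM in controls, 35.1 and 35.4 with construct 1 and 25.8 and 32.9 with construct 2 (-0.16 ± 0.08, adjusted p = 0.176), with 4C far below the rest, and fell by 0.46 ± 0.08 in DU145DR (adjusted p = 0.00439).

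DDX10 and NOC4L fell in 22Rv1DR and did not pass in DU145DR. DDX10, an RNA helicase, was in DU145DR at 18.1 and 19.01 FPKM in controls, 13.6 and 15.7 with construct 1 and 16.3 and 15.5 with construct 2 (-0.28 ± 0.09, adjusted p = 0.0505). It fell in 22Rv1DR, where DDX10 was at 12.9 and 13.95 FPKM in controls, 10.3 and 10.8 with construct 1 and 10.7 and 8.52 with construct 2 (-0.42 ± 0.09, adjusted p = 0.00661). NOC4L, a partner of NOP14, stood in DU145DR at 19.5 and 16.6 FPKM in controls, 17.6 and 16.1 with construct 1 and 16.5 and 16.2 with construct 2, with overlapping groups (-0.12 ± 0.09, adjusted p = 0.431), and fell by 0.32 ± 0.09 in 22Rv1DR (adjusted p = 0.0261). NOP14 itself fell in both lines (by 0.33 ± 0.07 and 0.38 ± 0.07, adjusted p = 0.0115 and 0.00402). BYSL and TSR1, which act late in small subunit maturation, also fell in both, by 0.35 and 0.34 in DU145DR and by 0.34 and 0.29 in 22Rv1DR. TSR1 shares 20.7% of its exonic bases with SRR on the other strand.

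Large subunit factors fell in 16 of 18 cases in DU145DR (median -0.36) and in 17 of 18 in 22Rv1DR (median -0.37), and all 18 lay below both controls in every knockdown library of each line. NOP16, an early assembly factor, stood in DU145DR at 53.4 and 52.02 FPKM in controls, 31.03 and 32.1 with construct 1 and 34.7 and 35.1 with construct 2, the largest drop of all 50 members there (-0.67 ± 0.09, adjusted p = 0.00105). In 22Rv1DR NOP16 was at 54.2 and 56.8 FPKM in controls, 42.1 and 40.5 with construct 1 and 33.8 and 44.8 with construct 2 (-0.47 ± 0.09, adjusted p = 0.00393), with 5C the highest knockdown library and still below both controls. MRTO4, a relative of the stalk protein P0 that holds its place during assembly, stood in DU145DR at 30.3 and 32.97 FPKM in controls, 21.3 and 22.6 with construct 1 and 22.7 and 24.6 with construct 2. In 22Rv1DR MRTO4 was at 24.8 and 25.4 FPKM in controls, 20.3 and 20.5 with construct 1 and 16.1 and 18.1 with construct 2. MRTO4 lay below both controls in every knockdown library, with log2 fold changes of -0.47 ± 0.06 in DU145DR (adjusted p = 0.000853) and -0.43 ± 0.06 in 22Rv1DR (adjusted p = 0.000897). PPAN, an assembly factor that binds precursor RNA, stood in DU145DR at 54.6 and 51.4 FPKM in controls, 41.3 and 40.7 with construct 1 and 34.2 and 38.2 with construct 2. In 22Rv1DR PPAN was at 32.5 and 33.02 FPKM in controls, 24.5 and 25.3 with construct 1 and 21.03 and 25.3 with construct 2. PPAN lay below both controls in every knockdown library, with log2 fold changes of -0.46 ± 0.07 in DU145DR (adjusted p = 0.00228) and -0.45 ± 0.07 in 22Rv1DR (adjusted p = 0.00174). PPAN shares 56.0% of its exonic bases with the read-through gene PPAN-P2RY11, and NOP2 54.4% with a second gene on its strand, so reads of these 2 could be split. RRS1, an early assembly factor, fell by 0.48 ± 0.11 in DU145DR (adjusted p = 0.0115) and stood at -0.31 ± 0.11 in 22Rv1DR (adjusted p = 0.0513), the only member of the step that did not pass there.

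PES1, BOP1 and WDR12 form the PeBoW complex, which is needed for processing of the large subunit rRNA, and all fell in both lines. PES1 stood in DU145DR at 64.3 and 60.5 FPKM in controls, 45.6 and 46.5 with construct 1 and 52.9 and 48.4 with construct 2 (-0.37 ± 0.08, adjusted p = 0.009). In 22Rv1DR PES1 was at 37.7 and 39.5 FPKM in controls, 28.7 and 27.8 with construct 1 and 21.96 and 27.2 with construct 2, the largest drop of the step there (-0.55 ± 0.08, adjusted p = 0.000872). BOP1 fell by 0.36 ± 0.08 and by 0.39 ± 0.08 (adjusted p = 0.0134 and 0.00621). WDR12 had the smallest drop of the complex, by 0.19 ± 0.04 and by 0.24 ± 0.04 (adjusted p = 0.00992 and 0.00204). NOC2L, whose yeast counterpart travels with large subunit precursors, did not pass in DU145DR at 54.7 and 50.99 FPKM in controls, 47.5 and 45.2 with construct 1 and 47.6 and 45.4 with construct 2 (-0.19 ± 0.09, adjusted p = 0.159) and fell in 22Rv1DR, at 93.4 and 93.3 FPKM in controls, 75.9 and 73.9 with construct 1 and 68.9 and 53.01 with construct 2 (-0.47 ± 0.09, adjusted p = 0.00317), with 5C lowest. FTSJ3, an RNA methyltransferase, stood in DU145DR at 27.5 and 25.7 FPKM in controls, 22.5 and 22.3 with construct 1 and 23.7 and 23.6 with construct 2 (-0.21 ± 0.07, adjusted p = 0.0534), where it did not pass, and fell by 0.37 ± 0.07 in 22Rv1DR (adjusted p = 0.0034).

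The remaining 9 members of the step fell in both lines. They are the methyltransferase NOP2, NIP7, EBNA1BP2, BRIX1, NOC3L, the GTPases GNL2 and GNL3, the helicase DDX18 and RRP1B, with log2 fold changes from -0.45 (NOP2) to -0.20 (RRP1B) in DU145DR and from -0.44 (NOP2) to -0.16 (BRIX1) in 22Rv1DR. NIP7 shares 20.2% of its exonic bases with COG8 on the other strand.

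Of the 4 proteins that act at several steps, nucleolin, the RNA helicase DDX21 and LYAR fell in both lines and nucleophosmin did not pass in either (medians -0.30 and -0.33). NCL, nucleolin, the most abundant member, stood in DU145DR at 393 and 401 FPKM in controls, 305 and 309 with construct 1 and 336 and 324 with construct 2. In 22Rv1DR NCL was at 299 and 289 FPKM in controls, 229 and 231 with construct 1 and 208 and 221 with construct 2. NCL lay below both controls in every knockdown library, with log2 fold changes of -0.32 ± 0.04 in DU145DR (adjusted p = 0.000667) and -0.41 ± 0.04 in 22Rv1DR (adjusted p = 0.000129). DDX21 stood in DU145DR at 99.5 and 101 FPKM in controls, 73.8 and 75.1 with construct 1 and 80.5 and 78.8 with construct 2. In 22Rv1DR DDX21 was at 55.4 and 54.5 FPKM in controls, 43.3 and 43.8 with construct 1 and 48.7 and 48.6 with construct 2, with little spread inside each group. DDX21 lay below both controls in every knockdown library, with log2 fold changes of -0.38 ± 0.03 in DU145DR (adjusted p = 0.000113) and -0.26 ± 0.03 in 22Rv1DR (adjusted p = 0.000448). LYAR, a zinc finger protein of the nucleolus, stood in 22Rv1DR at 38.9 and 38.6 FPKM in controls, 28.4 and 30.01 with construct 1 and 25.3 and 32.4 with construct 2 (-0.42 ± 0.08, adjusted p = 0.00426) and fell by 0.27 ± 0.08 in DU145DR (adjusted p = 0.0421). NPM1, nucleophosmin, stood in DU145DR at 237 and 255 FPKM in controls, 206 and 213 with construct 1 and 214 and 220.0 with construct 2 (-0.21 ± 0.08, adjusted p = 0.0863). In 22Rv1DR NPM1 was at 294 and 281 FPKM in controls, 247 and 248 with construct 1 and 322 and 258 with construct 2, where 4C lay above both controls and the other knockdown libraries below them (-0.10 ± 0.08, adjusted p = 0.338). NPM1 has 45 pseudogenes named after it in GENCODE v29, so its FPKM is uncertain.

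**Figure D2:**
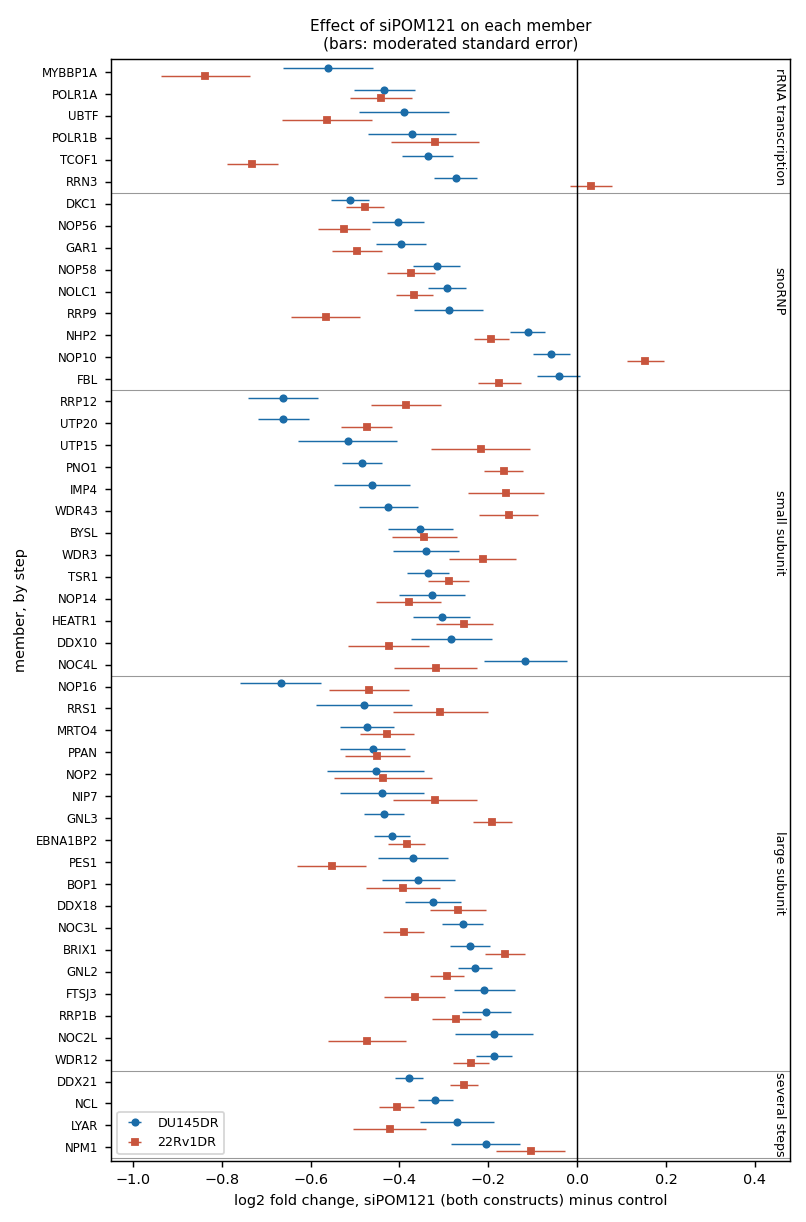
Log2 fold change of each of the 50 factors after siPOM121 in DU145DR (circles) and 22Rv1DR (squares), with bars of 1 moderated SE and rows grouped by step. All points lie left of 0 except NOP10 and RRN3 in 22Rv1DR, and TCOF1 (-0.34 and -0.73) shows the widest gap between lines.

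Each construct lowered the list when compared with control alone. These comparisons share the controls and are given side by side. Shares of all symbols that fell with both constructs were not counted. In DU145DR 42 members fell with construct 1 (median -0.38, 7.62% of all symbols lower, 12.2% higher) and 34 with construct 2 (median -0.32, 5.62% lower, 11% higher), 33 of them with both. None rose by limma with either construct, nor was any higher at an unadjusted p under 0.05 (0 and 0). Leaving out 1A, 2A, 1B or 2B brought the first count to 21, 24, 23 and 23, with 2.84% to 3.46% of all symbols lower in those fits. Leaving out 1A, 2A, 1C or 2C brought the second to 18, 18, 17 and 15, with 1.84% to 2.81% of all symbols lower. In 22Rv1DR 37 fell with construct 1 (median -0.31, 15.2% of all symbols lower, 12% higher) and 41 with construct 2 (median -0.38, 20.6% lower, 14.5% higher), 33 of them with both. NOP10 rose with construct 2 and none rose with construct 1, where 42 members were lower and 0 higher at an unadjusted p under 0.05. Leaving out 4A, 5A, 4B or 5B brought the construct 1 count to 18, 17, 14 and 20, with 7.58% to 9.3% of all symbols lower.

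In DU145DR the constructs did not differ for any member by limma (0 lower and 0 higher with construct 2, against 0.0147% and 0.00734% of all symbols, and 0 and 7 at an unadjusted p under 0.05). The median difference was 0.08, with values from -0.18 to 0.16. In 22Rv1DR they differed for 7 members. Construct 2 gave lower levels of GAR1 (-0.43 ± 0.06, adjusted p = 0.00577), MRTO4 (-0.26 ± 0.07, adjusted p = 0.047) and WDR12 (-0.22 ± 0.05, adjusted p = 0.0214), against 4.28% of all symbols. It gave higher levels of NOC3L (0.50 ± 0.05, adjusted p = 0.00146), DKC1 (0.20 ± 0.05, adjusted p = 0.0342), EBNA1BP2 (0.18 ± 0.05, adjusted p = 0.0416) and DDX21 (0.16 ± 0.04, adjusted p = 0.0265), against 7.3% of symbols. NOC3L, an assembly factor of the large subunit that pairs with NOC2L, stood in 22Rv1DR at 9.55 and 9.33 FPKM in controls, 5.84 and 6.27 with construct 1 and 8.35 and 8.80 with construct 2, lowest in both construct 1 libraries, and its change with construct 2 against control did not pass (-0.14 ± 0.05, adjusted p = 0.0723). The counts, 3 lower and 4 higher of 50, were near the shares of all symbols, so they do not set the members apart. DKC1 and GAR1, partners in 1 particle, had differences of opposite sign. The DKC1 difference kept the threshold in 9 of 22 alternatives and that of GAR1 in 18.

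The library medians show how uneven construct 2 was in 22Rv1DR. The median of the 50 members was -0.50 in 4C and -0.27 in 5C, against -0.31 in 4B and -0.30 in 5B, and -0.38, -0.37, -0.31 and -0.33 in 1B, 2B, 1C and 2C. The median difference between construct 2 and construct 1 was -0.10 in 22Rv1DR, 0.03 without 4C and -0.20 without 5C. Without 5C, 29 members were lower with construct 2 than with construct 1 and 7 higher, while 29.3% and 14.6% of all symbols were. Without 4C, 4 were lower and 7 higher, against 4.65% and 6.41% of symbols. Without 4B the counts were 1 and 1 (0.389% and 1.25% of symbols) and without 5B 0 and 1 (0.36% and 1.95%). The higher count was 2 without 4A, 5A, 1B, 2B, 1C or 2C, where 5.57% to 5.96% of symbols were higher. Of the 7 differences, NOC3L stayed past the threshold whichever library was left out. In the fits with 4C or with 5C left out, the GAR1 difference stood at -0.38 and -0.47.

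**Figure D3:**
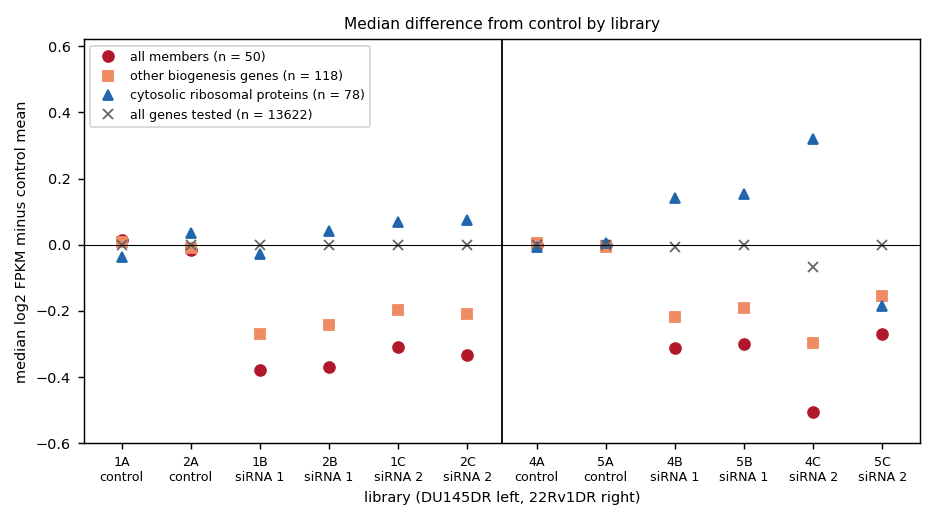
Median log2 FPKM minus the control mean of the line, for each of the 12 libraries, over the 50 factors (circles), 118 other biogenesis genes (squares), 78 ribosomal protein genes (triangles) and all 13622 genes tested (crosses). The factors lie between -0.50 and -0.27 in the 8 siPOM121 libraries, while ribosomal protein genes range from -0.18 in 5C to 0.32 in 4C.

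The size of the response differed between lines for 5 members by the interaction test, 1 with a larger drop in 22Rv1DR (15.9% of all symbols had a lower value there) and 4 with a higher value (8.93% of symbols). The median difference over the 50 was 0.01. Neither count exceeded the share of all symbols. The POM121 transcript itself changed by -0.71 in DU145DR and by -2.37 in 22Rv1DR, so line and depth of knockdown cannot be told apart here. TCOF1 fell more in 22Rv1DR, by a further 0.39 on the log2 scale (-0.39 ± 0.08, adjusted p = 0.00865). PNO1 (0.32 ± 0.06, adjusted p = 0.00749), RRN3 (0.30 ± 0.07, adjusted p = 0.0126), GNL3 (0.24 ± 0.06, adjusted p = 0.0222) and NOP10 (0.21 ± 0.06, adjusted p = 0.0286) had the higher value there. GNL3, nucleostemin, a nucleolar GTPase of proliferating cells, stood in DU145DR at 112 and 117 FPKM in controls, 83.04 and 77.8 with construct 1 and 89.8 and 89.4 with construct 2. In 22Rv1DR GNL3 was at 82.7 and 79.6 FPKM in controls, 65.3 and 69.8 with construct 1 and 73.8 and 76.00 with construct 2, with all knockdown libraries below both controls in each. For the other 45 members no difference between lines passed the test, also where a member fell in 1 line and did not pass in the other. PNO1 stayed past the threshold whichever library was left out (adjusted p up to 0.0389 over all alternatives). TCOF1 lost it without 2A (adjusted p = 0.0506), RRN3 without 1A and without 4A (0.0593 and 0.0527), and GNL3 without 2A, 5A and 5B. NOP10 kept it without 4C or without 5C and lost it without any 1 of the 4 controls and without 1B, 2C, 4B or 5B. Without 4C 13 members had a higher and 3 a lower value in 22Rv1DR, against 15.2% and 22.5% of all symbols, and without 5C 9 and 13, against 14.4% and 31% of symbols. Without 1A, 2A, 4A, 5A or 5B the higher count was 2, with 4.36% to 6.39% of symbols higher. Without 2A the lower count was 0, against 8.04% of symbols.

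Control cells of the 2 lines held different amounts of these factors. The members ranged from 4.25 FPKM (UTP15) to 397 FPKM (NCL) in DU145DR, with a median of 45.4, and from 4.79 FPKM (UTP15) to 294 FPKM (NCL) in 22Rv1DR, with a median of 33.1. EBNA1BP2 and NPM1 came next below NCL in DU145DR, at 349 and 246 FPKM, and NPM1 and FBL in 22Rv1DR, at 287 and 213. At the low end POLR1B (9.41) and POLR1A (14.9) followed UTP15 in DU145DR, and UTP20 (6.58) and NOC3L (9.44) in 22Rv1DR. In 22Rv1DR 33 members were lower and 9 higher than in DU145DR, while 42.7% and 40.3% of all symbols were. The lines mostly had different lane numbers. With 4A alone, whose lane numbers were those of the DU145DR libraries, the median difference of the members was -0.41. With both 22Rv1DR controls it was -0.43.

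The widest gaps were in EBNA1BP2, a large subunit scaffold (-2.27 ± 0.05, adjusted p = 6.62e-11), NOLC1 (-2.12 ± 0.05, adjusted p = 1.22e-10) and NOC3L (-1.82 ± 0.05, adjusted p = 7.14e-10), all lower in 22Rv1DR, followed by WDR43 (-1.58 ± 0.08, adjusted p = 2.72e-08), NIP7 (-1.55 ± 0.11, adjusted p = 4.59e-07) and, higher in 22Rv1DR, NOP2 (1.45 ± 0.13, adjusted p = 2.51e-06). EBNA1BP2 stood in DU145DR at 353 and 345 FPKM in controls, 253 and 249.6 with construct 1 and 277 and 266 with construct 2. In 22Rv1DR EBNA1BP2 was at 73.4 and 71.3 FPKM in controls, 52.1 and 52.1 with construct 1 and 56.7 and 61.3 with construct 2, so the 2 lines did not overlap. Knockdown lowered EBNA1BP2 by 0.42 ± 0.04 in DU145DR and by 0.38 ± 0.04 in 22Rv1DR (adjusted p = 0.000229 and 0.000202). NOP2 stood in DU145DR at 22.4 and 20.5 FPKM in controls, 15.1 and 15.2 with construct 1 and 16.5 and 15.9 with construct 2. In 22Rv1DR NOP2 was at 57.4 and 59.7 FPKM in controls, 47.3 and 48.3 with construct 1 and 32.9 and 46.4 with construct 2. NOP2 fell by 0.45 ± 0.11 in DU145DR and by 0.44 ± 0.11 in 22Rv1DR (adjusted p = 0.0163 and 0.0135). The difference of the response between lines was 0.03 ± 0.06, adjusted p = 0.717 for EBNA1BP2 and 0.02 ± 0.16, adjusted p = 0.954 for NOP2. Of those 9 higher in 22Rv1DR, NOC2L (0.82 ± 0.10, adjusted p = 3.32e-05), NOC4L (0.65 ± 0.11, adjusted p = 0.000303), NHP2 (0.62 ± 0.05, adjusted p = 6.47e-07) and FTSJ3 (0.23 ± 0.08, adjusted p = 0.0228) fell in that line and did not pass in DU145DR. The others were NOP2, NOP14, NOP58 and POLR1B, which fell in both lines, and NPM1, which passed in neither. None of these members passed the interaction test of the lines.

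**Figure D4:**
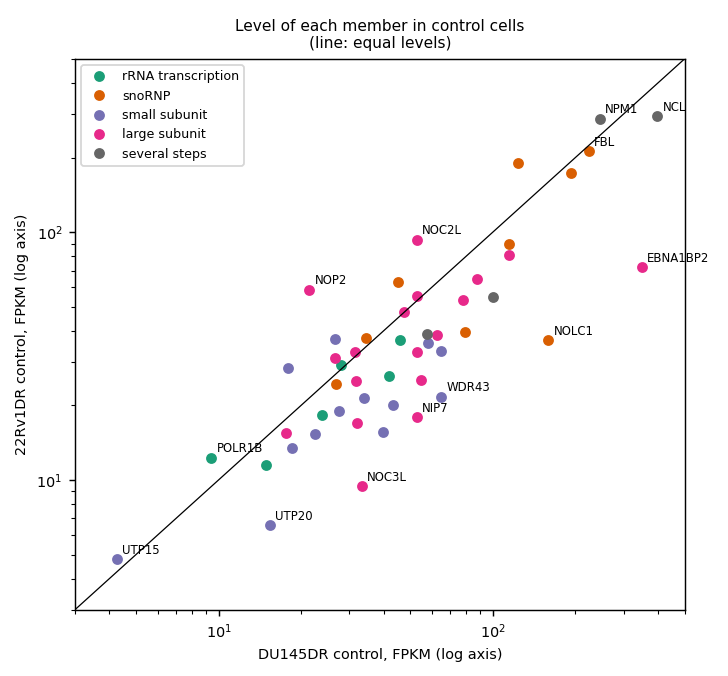
Mean FPKM of each of the 50 factors in DU145DR controls (x, log axis) and 22Rv1DR controls (y, log axis), coloured by step, with a line of equal levels. Most points lie below the line, EBNA1BP2 and NOLC1 farthest, and NOP2 lies above it.

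Genes of the same pathway outside the list of 50 mostly moved the same way, with medians nearer to 0. Both lists were chosen with earlier results of these data known, so the gap between their medians may come from that choice. Of 118 other ribosome biogenesis genes, 65 fell and none rose in DU145DR (78 lower and 0 higher at an unadjusted p under 0.05, median -0.22), and 67 fell and 6 rose in 22Rv1DR (median -0.23). Small subunit genes gave 26 and 24 drops of 38, and large subunit genes 22 and 26 of 44. There were 5 and 5 drops of 11 in rRNA transcription and 4 and 4 of 9 among snoRNP genes. Nucleases of the rRNA precursor gave 8 and 8 of 16. The genes that rose in 22Rv1DR were 3 of rRNA transcription, 2 of the large subunit and 1 nuclease gene. Of all symbols 9.37% fell in DU145DR, and 20.4% fell and 15.2% rose in 22Rv1DR. NOL6 and EMG1, both of the small subunit processome, fell most in DU145DR (-0.63 ± 0.07, adjusted p = 0.000456 and -0.62 ± 0.05, adjusted p = 8.49e-05), and UTP14A and DHX37 in 22Rv1DR (-0.64 ± 0.06, adjusted p = 7.75e-05 and -0.62 ± 0.12, adjusted p = 0.00434). Among large subunit genes the leaders were NOL12 (-0.53) and WDR74 (-0.51) in DU145DR and URB2 (-0.58) and SURF6 (-0.50) in 22Rv1DR. EXOSC10, a catalytic subunit of the nuclear exosome, fell by 0.55 ± 0.05 in 22Rv1DR (adjusted p = 0.000127), and EXOSC2, one of its cap proteins, fell in both lines (by 0.27 and 0.32). EXOSC5, a subunit of the exosome ring, fell by 0.31 in DU145DR.

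Assembly factors of snoRNPs fell by 0.32 (ZNHIT6) and 0.31 (NAF1) in DU145DR and by 0.41 (NUFIP1) and 0.37 (SHQ1) in 22Rv1DR. Polymerase I genes were mixed. TAF1D, a subunit of the promoter factor SL1, fell in DU145DR (-0.42 ± 0.07, adjusted p = 0.00346) and rose in 22Rv1DR (0.23 ± 0.07, adjusted p = 0.0374). ZNRD1, a polymerase I subunit, fell by 0.39 in DU145DR, and POLR1E and TAF1C fell by 0.34 and 0.31 in 22Rv1DR, where POLR1D, shared with polymerase III, rose by 0.19. The other genes named by size that rose in 22Rv1DR were C1D, an exosome cofactor (0.39), NMD3, the export adaptor of the large subunit (0.25), and SBDS, which acts late on it (0.12). With single libraries left out, the drops of EXOSC5, ZNHIT6 and NAF1 in DU145DR were each lost without 1A and without 2A. The ZNHIT6 drop was also lost without any 1 of 1B, 2B, 1C or 2C, and the NAF1 drop without 1B or 1C. In 22Rv1DR the TAF1C drop was lost without 5A, and the rises of TAF1D, POLR1D, NMD3 and SBDS were each lost without 4A and without 1 or more of the other libraries. The calls of the other genes named from these steps held whichever library was left out.

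Genes of the ribosomal proteins themselves showed no such drop. Of 78 cytosolic ribosomal protein genes tested (79 listed), none fell by limma in either line, against 9.37% and 20.4% of all symbols. In DU145DR 2 rose and in 22Rv1DR 12, against 14.5% and 15.2% of all symbols, with medians of 0.05 and 0.06. At an unadjusted p under 0.05, 1 was lower and 6 higher in DU145DR, and 0 lower and 19 higher in 22Rv1DR. RPS28 (0.30) and RPL28 (0.16) rose in DU145DR, and RPS3A (0.40), RPL9 (0.39) and RPS7 (0.35) led in 22Rv1DR. Their median differed widely between the construct 2 libraries of 22Rv1DR, at 0.32 in 4C and -0.18 in 5C, as did their share of summed FPKM, and its part in the members' values was not tested. The members' median was -0.50 in 4C and -0.27 in 5C. In the DU145DR knockdown libraries it was between -0.38 and -0.31. The ribosomal protein share there ran from 8.69% to 9.24%, against 8.54% and 8.99% in controls. Transcript length and fold change had a Spearman's rho over 12114 genes of 0.02 in DU145DR and 0.01 in 22Rv1DR. Over the 50 members the rho was -0.09 and -0.22.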

How the data were processed

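RNA-seq of 12 libraries (6 groups of 2 libraries, 2 lanes each, 24 samples) was used. TopHat was the aligner and Cufflinks made the transcript values, as listed per the submitters' processing notes together with the builds hg19 and mm10. Their versions are not given in the sources used here. The table deposited by the authors holds log2 FPKM, with values of 1 FPKM or less set to 0. Read counts are not used here, so depth is unknown and no counting interval is given. Of 25277 symbols, 605 had more than 1 line and were represented by their highest line, and no member was among them.

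The 2 lanes of each library were averaged as log2 values. The filter asked for 2 libraries or more with both lanes above the floor and kept 13622 symbols. The tests used limma 3.58.1 in R 4.3.3 (trend and robust options, 1 mean per group, 6 groups sharing 1 spread, 6 residual degrees of freedom), were 2-sided and used Benjamini-Hochberg adjustment over all 13622, with 0.05 as the threshold. The difference between lines is an interaction contrast.

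Members and gene lists were chosen with earlier results of these data known. Members are named with values by rule: per line and step, up to 4 with the largest fold change past the threshold, each called member against the majority, each not called in DU145DR, up to 6 called per difference between constructs and lines, and the 3 highest and lowest control levels. Other biogenesis genes are named up to 2 per direction, step and line, and other members are given as counts, ranges or short values. Alternatives were log2(FPKM + 1) and log2(FPKM + 0.1), no filter, a mean of at least 5 FPKM, quantile normalization, a replicate block, array weights, each line fitted alone, single lanes, and each library left out. Leaving out 4C and 5C together was added after seeing the data. Promoters come from RefSeq and snoRNA genes, overlaps and lengths from GENCODE v29, both on another build than the reads, so only letters, names and gene structure are used.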

Additional observations from a re-analysis of the deposited data

Results flagged for a closer look

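The response to siPOM121 differed between the lines by the interaction test for 5 of the 50 factors. Of all symbols 15.9% had a lower and 8.93% a higher value in 22Rv1DR. POM121 itself fell further in 22Rv1DR, so line and depth of knockdown cannot be told apart. On the log2 scale, as the 22Rv1DR response minus the DU145DR response, the difference was -0.39 for TCOF1, 0.21 for NOP10, 0.24 for GNL3, 0.30 for RRN3 and 0.32 for PNO1. TCOF1 fell in both lines and more in 22Rv1DR. GNL3 and PNO1 fell in both and more in DU145DR. RRN3 fell in DU145DR and stood at 0.03 in 22Rv1DR, and NOP10 stood at -0.06 in DU145DR and rose in 22Rv1DR. Of the 21 alternatives run for each, the limma test kept the threshold in 21 for PNO1, 20 for TCOF1, 19 for RRN3, 17 for GNL3 and 10 for NOP10. Adjusted p over these alternatives ran from 0.00223 to 0.0389 for PNO1, from 0.000599 to 0.0506 for TCOF1, from 0.0012 to 0.0593 for RRN3, from 0.00593 to 0.125 for GNL3 and from 0.00147 to 0.105 for NOP10. Groups held 2 libraries, too few to look for a library far from its group.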

How the results depend on the processing

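The median fold change of the 50 factors stayed between -0.36 and -0.33 in DU145DR and between -0.41 and -0.30 in 22Rv1DR over all alternatives run, and no call changed direction. Counts of calls moved more, over all symbols as well as over the factors, so those below describe the fit rather than the factors. For most of them the share of all symbols in the same fit is not given, so they are no result about the factors. Libraries with the same number did not deviate together (correlations from -0.10 to 0.13), so the numbers were not taken as pairs. With a replicate block 43 factors fell in DU145DR and 43 in 22Rv1DR, where 1225 and 2784 of all symbols fell. In that fit 2 factors were higher with construct 2 than with construct 1 in 22Rv1DR. With 22Rv1DR fitted alone 17 fell with both constructs, where 1082 of all symbols fell, against 2774 in the main fit. In the fit alone 9 fell with construct 1 and 12 with construct 2, and 0 rose with both or with construct 2. Between the constructs, 0 were lower and 0 higher with construct 2 than with construct 1. Array weights gave 0 lower and 1 higher for construct 2 against construct 1, 0 higher for construct 2 against control, and 4 lower and 7 higher for the difference between lines. Quantile normalization gave 1 higher with construct 1 in 22Rv1DR and 8 higher for the line difference. Lower-numbered lanes alone gave 0 higher in 22Rv1DR and, for construct 2 against construct 1, 1 lower and 2 higher. Higher-numbered lanes gave 1 lower there and 2 higher for the line difference. With single libraries left out, counts of lower members ran from 24 to 47 (DU145DR), 21 to 49 (its construct 1), 15 to 46 (its construct 2), 14 to 46 (22Rv1DR construct 1), 0 to 29 (22Rv1DR construct 2 against 1) and 0 to 13 (line difference). Counts of higher members ran from 0 to 1 (22Rv1DR), 1 to 2 (its construct 2), 1 to 7 (construct 2 against 1) and 2 to 13 (line difference). Where an omission leaves a group with 1 library, that library is assumed to vary like the other groups. Without both 4C and 5C, a choice made after seeing the data, 47 fell in DU145DR and 46 with construct 1 in 22Rv1DR. In that fit 2225 of all symbols fell in DU145DR, against 1276 in the main fit. The cause of these shifts was not tested.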
